A study of Sus scrofa with 59 samples.

Results

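Longissimus dorsi, the long muscle of the back, was compared between 20 pigs in which 5 heat shock genes stood high and 20 pigs in which they stood low, out of 59 pigs with 1 array each. All pigs came from 1 LD/LW x Duroc cross, were fed ad libitum on 1 farm and were 170 days old, and the labels give no treatment, sex or array batch. Their muscle was frozen at slaughter, and the study measured it to relate expression soon after death to meat quality and composition, traits that were not analysed here. The 2 groups, called heat-shock-high and heat-shock-low, were therefore chosen by measured expression and are not groups of the study. For each of HSPH1, DNAJA1, DNAJB1, BAG3 and HSP70.2, the probe set with the highest mean was standardised over the 59 arrays, and the mean of the 5 values was the score of a muscle. The 20 muscles with the highest scores, the 20 with the lowest and a middle 19 were formed in this way. The 5 genes are described without a test, and every other gene was compared. Because levels on these arrays chose the groups, a test below says only that a gene's level went with the score among these pigs.

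Heat shock proteins are molecular chaperones, which hold unfolded proteins, refold them or pass them on for degradation. HSP70 works in a cycle with DNAJ proteins, which bring it clients, and with exchange factors that release them, while HSP90, the small heat shock proteins and the ring-shaped chaperonins handle other clients. Heat, loss of ATP, acid and mechanical damage all raise unfolded protein and free the heat shock factor HSF1 to switch these genes on, and muscle meets several of these during exercise, transport and after slaughter.

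The muscles were skeletal muscle by their markers: of 8 marker genes fixed for this tissue 3 had a probe set, namely CKM, TNNT3 and DES, and all of them lay between 12.67 and 14.70 log2 on every array. Values are the authors' normalised log2 levels, which cannot tell fewer cells of a type from less RNA per cell.

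The score ran from 0.42 to 2.45 in the heat-shock-high muscles, from -0.41 to 0.40 in the middle and from -2.07 to -0.54 in the heat-shock-low muscles. The limits fell in a continuous range: the last muscle taken as high, of pig 4, scored 0.421 and the first one left out, of pig 66, scored 0.402. At the other end pig 43 was taken as low at -0.538 and pig 35 was left out at -0.411. Pig 36 stood apart at the top with 2.45, against 1.71 in the next pig, and pig 16 was the lowest with -2.07. The 5 genes differed in how they followed each other, with Pearson r over the 59 arrays from 0.480 for DNAJB1 and BAG3 to 0.916 for DNAJA1 and BAG3.

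The following values chose the groups and are given as a description. HSPH1, the HSP110 that exchanges nucleotide on HSP70, lay at 11.90, 12.25 and 13.32 log2 (lowest, median and highest) in the heat-shock-high muscles and at 10.55, 11.27 and 11.95 in the heat-shock-low muscles. DNAJA1, a DNAJ partner of HSP70, had 11.43, 12.21 and 13.52 in the heat-shock-high muscles and 9.94, 10.99 and 11.65 in the heat-shock-low ones. The groups overlapped only at their edges. DNAJB1, the stress-inducible DNAJ protein, had 7.94, 8.94 and 10.61 in heat-shock-high and 7.01, 7.67 and 8.43 in heat-shock-low muscles. BAG3, which links HSP70 and HSPB8 to the removal of damaged muscle filaments, had 12.87, 13.34 and 13.74 in heat-shock-high and 11.81, 12.45 and 12.73 in heat-shock-low muscles, and was the gene of the 5 whose groups did not overlap. HSP70.2, the inducible HSP70 itself, had 13.06, 13.32 and 13.98 in heat-shock-high and 11.88, 12.35 and 13.21 in heat-shock-low muscles. Leaving HSP70.2 out of the score gave the same 40 muscles in the same groups.

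**Figure D1:**
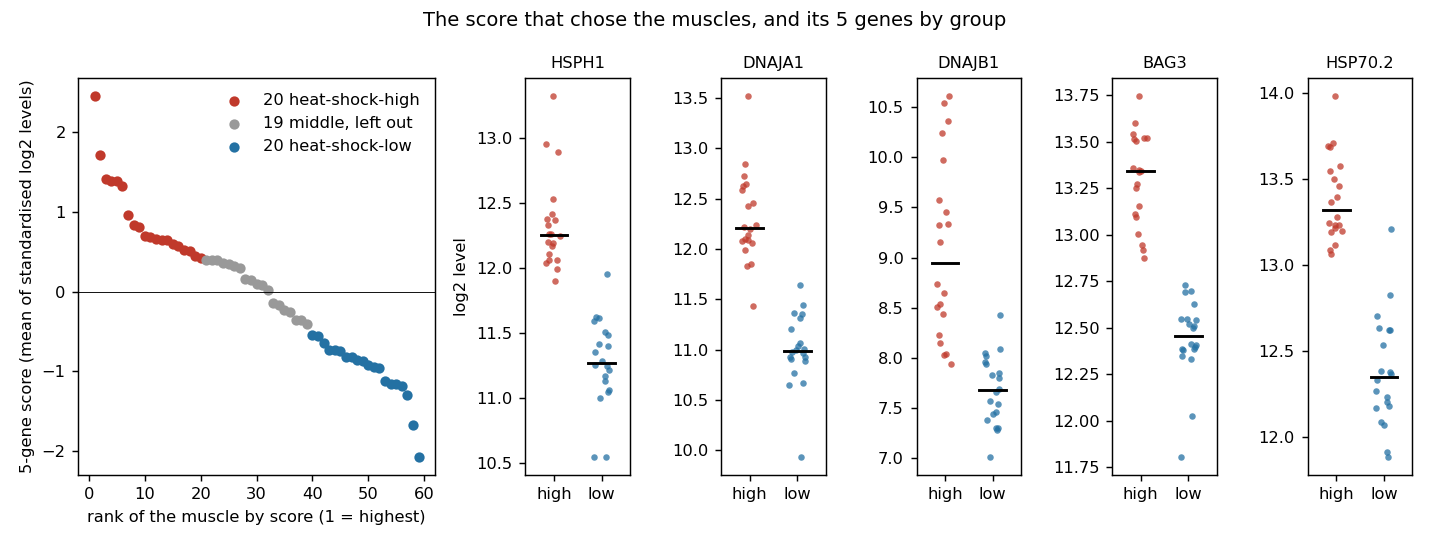
The left panel plots the 5-gene score (mean of standardised log2 levels) of all 59 muscles by rank, and the other panels the log2 level of each score gene in the 20 heat-shock-high and 20 heat-shock-low muscles, with the median as a line. The score falls from 2.45 to -2.07, with pig 36 apart at the top and the limits of the groups in a continuous range. BAG3 is the gene whose groups do not overlap.

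Outside the 5 genes, much of the muscle's expression went with the score. Of 4923 named genes tested, 1067 were higher in heat-shock-high muscles (21.7%) and 876 were lower (17.8%) at a limma adjusted p under 0.05, each gene standing by its brightest probe set. Most of these differences were small: 134 genes were higher by at least 0.5 log2 (2.72%) and 68 were lower by as much (1.38%). No gene had groups that did not overlap (0%). The balance of the 2 directions went with the scaling, with 942 genes higher and 1046 lower after quantile normalisation and 1176 higher and 720 lower with the arrays re-centred on their medians. The median difference of all genes was -0.01 log2, on arrays that GCRMA had already normalised.

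The score was tied to the broadest pattern of variation on these arrays. The first principal component of 11256 probe sets outside every gene list carried 19.6% of their variance and correlated with the score at r = 0.806 over the 59 arrays. With this component as a covariate in the limma fit, 7 genes were called higher and 7 lower, and 690 had an unadjusted p under 0.05. The component was built from the same arrays as the score. With scores of adipocyte, macrophage, matrix and slow fibre genes as covariates, 547 genes were higher and 478 lower. These scores average the tested genes of the lists of those names, so a member of such a list is in part adjusted for itself.

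Chaperones as a family went with the 5 genes that chose the groups. Of 78 genes tested in 6 chaperone lists, 52 were higher in heat-shock-high muscles and 1 was lower, with a median difference of 0.30 log2, beside 21.7% higher and 17.8% lower and a median of -0.01 among all genes tested. Their count was between 51 and 54 when any pig was left out and 49 without the 2 highest and 2 lowest scores. With the principal component as a covariate none of the 78 was called by limma, 18 had an unadjusted p under 0.05 and 65 had a positive difference, with a median of 0.08 log2.

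Among HSP70 proteins and their cofactors 8 of 12 genes were higher (66.7%, beside 21.7% of all genes) and none lower (10 positive, median 0.25 log2). HSPA6, a strictly inducible HSP70 in human cells, had the largest difference of any gene. It lay at 7.13, 9.07 and 13.60 log2 (lowest, median, highest) in heat-shock-high muscles and at 6.50, 7.21 and 8.55 in heat-shock-low muscles. The groups overlapped, with 13 of 20 heat-shock-high muscles above every heat-shock-low one, and the level of pig 36, 13.60, was 2.37 higher than any other. The difference was 1.92 ± 0.35 log2 (SE, limma adjusted p = 3.82e-05) and 1.69 without pig 36. HSP70 genes share much of their sequence, and binding of HSP70.2 transcripts to the probes of HSPA6 was not tested. HSPA8, the constitutive HSP70 of every cell, had 13.68, 13.94 and 14.30 in heat-shock-high and 13.44, 13.62 and 13.78 in heat-shock-low muscles. The difference was 0.32 ± 0.04, with 18 of 20 heat-shock-high muscles above all heat-shock-low ones (limma adjusted p = 2.18e-07). HSPA4, an HSP110 exchange factor like HSPH1, differed by 0.64 ± 0.12, and HSPA13, a microsomal HSP70 relative, by 0.89 ± 0.14. HSPBP1, which strips nucleotide from HSP70, was higher by 0.26 ± 0.05, whereas ST13, the adaptor that steadies HSP70 with its client, differed by 0.05 ± 0.04 and did not pass (limma adjusted p = 0.281).

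Of 13 further DNAJ genes 9 were higher (69.2%, beside 21.7% of all genes) and none lower, with a median of 0.18 log2. DNAJA4, a cytosolic partner of HSP70, had 9.73, 10.83 and 12.08 in heat-shock-high and 9.29, 10.02 and 10.51 in heat-shock-low muscles, a difference of 0.81 ± 0.14 (limma adjusted p = 1.66e-05). DNAJB4, a close relative of DNAJB1, differed by 0.59 ± 0.09. The DNAJ proteins of the endoplasmic reticulum were also higher, DNAJB9 by 0.41 ± 0.09 and DNAJC3 by 0.38 ± 0.08.

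Of 14 genes of HSP90 and its helpers 9 were higher (64.3%, beside 21.7% of all genes) and none lower, with a median of 0.29 log2. PPID, a prolyl isomerase that docks on HSP90, had 11.11, 11.27 and 11.57 in heat-shock-high and 10.53, 10.93 and 11.12 in heat-shock-low muscles, and 18 of 20 heat-shock-high muscles lay above all heat-shock-low ones. Its difference was 0.40 ± 0.05 (limma adjusted p = 2.74e-07). SUGT1, an HSP90 adaptor, differed by 0.62 ± 0.08, and STIP1, which carries clients from HSP70 to HSP90, by 0.51 ± 0.07. HSP90AB1, the constitutive HSP90, differed by 0.37 ± 0.08. The inducible HSP90AA1, which falls outside the naming rule and was chosen after its value was seen, differed by 0.28 ± 0.05. FKBP5, an HSP90 cochaperone known as a glucocorticoid target, differed by 0.21 ± 0.11 and did not pass (limma adjusted p = 0.126).

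Small heat shock proteins, which bind unfolding filaments without using ATP, were higher in 7 of 8 cases, with a median of 0.44 log2, beside 21.7% higher among all genes. HSPB1, also called HSP27, had 12.91, 13.76 and 14.21 in heat-shock-high and 11.73, 12.88 and 13.29 in heat-shock-low muscles. Just 2 of the 20 heat-shock-high muscles reached into the range of the heat-shock-low ones, and the difference was 0.92 ± 0.12 (limma adjusted p = 2.12e-07). HSPB8, the partner of BAG3, followed with 0.68 ± 0.09 and CRYAB, the desmin chaperone, with 0.41 ± 0.06. A second CRYAB probe set differed by 1.90. HSPB2 and HSPB3, which pair with each other in muscle, differed by 0.40 ± 0.08 and 0.50 ± 0.09. HSPB6, the small heat shock protein of smooth muscle relaxation, was the exception with -0.13 ± 0.13 (limma adjusted p = 0.442). A second HSPB6 probe set differed by 0.10.

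The chaperonin list, which holds the cytosolic ring TRiC, mitochondrial HSP60 and prefoldin, had 10 of 16 genes higher and 1 lower, with a median of 0.29 log2. The shares were 62.5% and 6.25%, beside 21.7% and 17.8% of all genes. CCT8, a TRiC subunit, had 11.24, 11.85 and 12.30 in heat-shock-high and 10.67, 11.08 and 11.44 in heat-shock-low muscles, with 17 of 20 heat-shock-high muscles above all heat-shock-low ones and a difference of 0.75 ± 0.09 (limma adjusted p = 3.71e-08). The TRiC subunits CCT2, CCT6A and TCP1 were higher too, by 0.65 ± 0.09, 0.41 ± 0.06 and 0.39 ± 0.04. In mitochondria HSPD1, or HSP60, was higher by 0.43 ± 0.05 and HSPA9, the mitochondrial HSP70, by 0.37 ± 0.06. The lower gene was the prefoldin subunit PFDN1, at -0.16 ± 0.05, which is named outside the rule. It turned to 0.09 with the principal component as a covariate.

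Chaperones of the endoplasmic reticulum and its unfolded protein response were higher in 9 of 15 genes (60.0%, beside 21.7% of all genes) and lower in none. All 15 differences were positive (median 0.31 log2). HSP90B1, the HSP90 of that compartment, differed by 0.76 ± 0.12 (limma adjusted p = 7.47e-06), with 9.90, 10.52 and 11.52 in heat-shock-high and 9.27, 9.76 and 10.36 in heat-shock-low muscles. The groups overlapped, and all 20 heat-shock-high muscles lay above the median of the heat-shock-low ones. HSPA5, the HSP70 of the compartment, differed by 0.38 ± 0.09 and the secreted chaperone MANF by 0.42 ± 0.09. PPP1R15A, which restarts translation after stress, differed by 0.52 ± 0.10, the transcription factor XBP1 by 0.35 ± 0.07 and the stress factor DDIT3, or CHOP, by 0.45 ± 0.11. The level of ATF4, which acts upstream of DDIT3 and is controlled largely by translation, differed by 0.04 ± 0.04 (limma adjusted p = 0.513). With the 4 cell type and fibre scores as covariates DDIT3 no longer passed, at 0.29 (limma adjusted p = 0.124). HSPA5 and MANF turned to -0.07 each with the principal component as a covariate.

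Of 15 genes in a list of heat shock factors and further heat shock targets 8 were higher and 2 lower, with a median of 0.12 log2. The shares were 53.3% and 13.3%, beside 21.7% and 17.8% of all genes. JMJD6, a hydroxylase of the nucleus, had 7.42, 7.88 and 9.07 in heat-shock-high and 6.94, 7.41 and 7.63 in heat-shock-low muscles. It came close to separating the groups, with 19 of 20 heat-shock-high muscles above all heat-shock-low ones and a difference of 0.59 ± 0.09 (limma adjusted p = 2.96e-06). ZFAND2A, a proteasome adaptor induced by arsenite, differed by 1.05 ± 0.19, and P4HA2, a collagen prolyl hydroxylase, by 1.01 ± 0.11. HSF2, a heat shock factor, was higher by 0.57 ± 0.08. HMOX1, which breaks down haem, differed by 0.45 ± 0.15 (limma adjusted p = 0.0179). ZFAND2A turned to -0.15 and HMOX1 to -0.16 with the principal component as a covariate. The 2 lower genes both encode RNA-binding proteins known for their induction by cold. They are named outside the rule: CIRBP was lower, at -0.20 ± 0.05 (limma adjusted p = 0.00365), and so was RBM3, at -0.34 ± 0.13 (limma adjusted p = 0.0395). The call of RBM3 was lost on leaving out any of 17 pigs in turn.

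**Figure D2:**
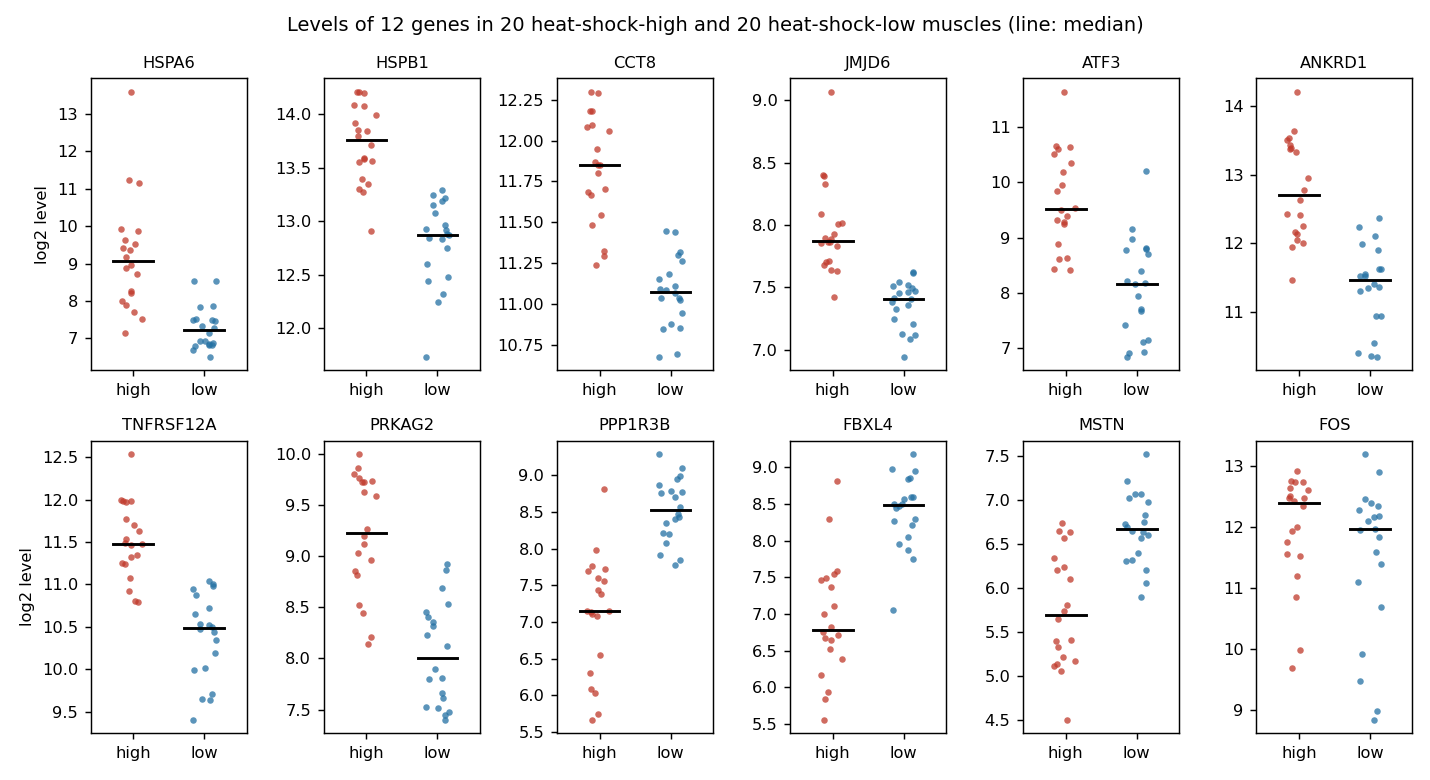
Log2 levels of 12 genes in each of the 20 heat-shock-high (left in each panel) and 20 heat-shock-low muscles, with the median as a line. HSPB1, CCT8 and JMJD6 overlap little between the groups, HSPA6 is spread over the high group with pig 36 at 13.60, PPP1R3B and FBXL4 are lower in the high group, and FOS overlaps fully.

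Genes known to answer strain and injury of muscle fibres were among those with the largest differences. Of 14 genes in the list of NR4A receptors and strain genes 7 were higher (50.0%, beside 21.7% of all genes) and none lower. Of the higher ones 6 differed by at least 0.5 log2, although the median of the list was 0.16. ANKRD1, a titin-bound protein induced by stretch, had 11.47, 12.71 and 14.21 in heat-shock-high and 10.34, 11.46 and 12.37 in heat-shock-low muscles. Its range was shifted as a whole, with 13 of 20 heat-shock-high muscles above every heat-shock-low one and a difference of 1.41 ± 0.21 (limma adjusted p = 1.95e-06). XIRP1, or Xin, which marks damaged myofibrils, had 10.33, 11.53 and 13.19 in heat-shock-high and 9.27, 10.29 and 11.11 in heat-shock-low muscles, a difference of 1.46 ± 0.22 (limma adjusted p = 2.57e-06). TNFRSF12A, the receptor for the cytokine TWEAK, had 10.80, 11.48 and 12.53 in heat-shock-high and 9.41, 10.49 and 11.04 in heat-shock-low muscles. It differed by 1.13 ± 0.15, and 17 of 20 heat-shock-high muscles lay above all heat-shock-low ones. GADD45A, a growth arrest gene raised in muscle by denervation, differed by 1.53 ± 0.27 and RRAD, a small GTPase found in injured muscle, by 1.33 ± 0.22. The difference of GADD45A turned to -0.13 with the principal component as a covariate. NR4A3, an orphan nuclear receptor induced by exercise, had 5.87, 7.87 and 10.32 in heat-shock-high and 4.94, 6.01 and 9.06 in heat-shock-low muscles, a difference of 1.37 ± 0.35 (limma adjusted p = 0.00212). Its groups overlapped widely, with 1 heat-shock-high muscle above all heat-shock-low ones. ABRA, an actin-binding activator of the strain response, differed by 0.17 ± 0.14 and did not pass (limma adjusted p = 0.355).

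Immediate early genes, transcribed within minutes of a stimulus, were not uniform. Of 14 genes 5 were higher (35.7%, beside 21.7% of all genes) and none lower, with a median of 0.35 log2. ATF3, a stress-induced repressor, had 8.41, 9.52 and 11.64 in heat-shock-high and 6.85, 8.17 and 10.21 in heat-shock-low muscles, a difference of 1.58 ± 0.27 (limma adjusted p = 1.89e-05). All 20 heat-shock-high muscles lay above the median of the heat-shock-low ones. EGR1, a zinc finger factor of the serum response, differed by 1.14 ± 0.33 (limma adjusted p = 0.00644) and MYC by 0.91 ± 0.21. FOS ran from 9.70 to 12.93 in heat-shock-high and from 8.85 to 13.20 in heat-shock-low muscles. It differed by 0.47 ± 0.34 and did not pass (limma adjusted p = 0.272), and the phosphatase gene DUSP1 differed by 0.12 ± 0.17 (limma adjusted p = 0.621). With the 4 cell type and fibre scores as covariates the differences of EGR1 (0.67, limma adjusted p = 0.222) and NR4A3 (0.66, limma adjusted p = 0.295) no longer passed. MYC turned to -0.13 with the principal component as a covariate.

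TGFB2, SMAD1 and TGIF1 were among the 15 largest positive differences and MSTN among the 15 largest negative ones; their pathway was not one of the gene lists. TGFB2, a ligand of the TGF-beta family, had 7.74, 8.89 and 9.98 in heat-shock-high and 6.94, 7.88 and 8.24 in heat-shock-low muscles, a difference of 1.13 ± 0.17 (limma adjusted p = 2.41e-06). SMAD1, which carries the signal of bone morphogenetic proteins, had 9.20, 10.39 and 12.09 in heat-shock-high and 8.76, 9.23 and 9.69 in heat-shock-low muscles, with 18 of 20 heat-shock-high muscles above all heat-shock-low ones and a difference of 1.12 ± 0.15. TGIF1, a corepressor of SMAD proteins, differed by 1.10 ± 0.16. MSTN, or myostatin, the TGF-beta ligand that limits muscle mass, ran the other way. It had 4.50, 5.69 and 6.73 in heat-shock-high and 5.89, 6.67 and 7.51 in heat-shock-low muscles, a difference of -0.92 ± 0.16 (limma adjusted p = 3.38e-05), and 12 of 20 heat-shock-high muscles lay below every heat-shock-low one. FST, or follistatin, which binds and blocks myostatin, was lower as well, at -0.72 ± 0.13. MYF6, the myogenic factor of mature fibres, was higher by 0.73 ± 0.17 (limma adjusted p = 0.000831). In the list of 10 myogenic and growth genes 1 was higher and 4 were lower (10.0% and 40.0%, beside 21.7% and 17.8% of all genes). CKS2, a subunit of cell cycle kinases, had 9.31, 10.42 and 11.99 in heat-shock-high and 8.12, 9.07 and 9.97 in heat-shock-low muscles, and its 1.51 ± 0.19 was among the 5 largest positive differences. ROCK2, a kinase of actin contraction, differed by 1.09 ± 0.17.

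The proteasome, which degrades the proteins that chaperones give up, was higher by small amounts in many subunits. Of 27 subunit genes 18 were higher (66.7%, beside 21.7% of all genes) and none lower. In the list 25 differences were positive and the median was 0.17 log2, with none as large as 0.5. PSMA5, a subunit of the core, had 11.16, 11.81 and 12.27 in heat-shock-high and 11.00, 11.32 and 11.77 in heat-shock-low muscles, and its 0.44 ± 0.08 was the largest of the list (limma adjusted p = 5.82e-05). PSMD12 of the regulatory cap differed by 0.37 ± 0.08 and PSMA1 of the core by 0.32 ± 0.05. With the principal component as a covariate none of the 27 was called by limma, 1 had an unadjusted p under 0.05 and 8 were positive. PSMD12 turned to -0.00011 in that fit.

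Other routes of protein breakdown differed from each other. Of 10 ubiquitin and atrophy genes 6 were higher and 1 was lower (60.0% and 10.0%, beside 21.7% and 17.8% of all genes). Among the higher ones were FOXO1, a factor that drives atrophy genes, by 0.48 ± 0.11 and the ligase gene CBLB by 0.35 ± 0.12. CBLB turned to -0.14 with the principal component as a covariate. FBXO32, or atrogin-1, the muscle atrophy ligase, differed by -0.10 ± 0.16 (limma adjusted p = 0.658). Of 18 autophagy and lysosome genes 4 were higher and 5 lower (22.2% and 27.8%). Among them were GABARAPL1, an autophagosome protein, at 0.45 ± 0.12, WIPI1 at 0.42 ± 0.07 and TFEB, the regulator of lysosome genes, at -0.32 ± 0.07. A second WIPI1 probe set differed by 0.02. A list of calpains, calcium proteases linked to meat tenderness, and their inhibitor calpastatin had 2 of 6 genes lower (33.3%) and none higher. Among the lower ones was CAPN7 at -0.25 ± 0.05.

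Of the RNA machinery, many splicing genes and few ribosomal genes were called. Of 25 splicing and nuclear RNA-binding genes 12 were higher and 1 was lower, with a median of 0.17 log2. The shares were 48.0% and 4.0%, beside 21.7% and 17.8% of all genes. SRSF7, a serine- and arginine-rich splicing factor, differed by 0.62 ± 0.10 (limma adjusted p = 1.51e-05), SRSF10, which is known to change activity with heat shock, by 0.40 ± 0.07 and TRA2B by 0.36 ± 0.06. SRSF5 was the lower one, with 7.59, 8.38 and 9.62 in heat-shock-high and 7.92, 9.05 and 9.82 in heat-shock-low muscles, a difference of -0.69 ± 0.14 (limma adjusted p = 0.000249). Of 52 cytosolic ribosomal protein genes 1 was higher and 1 lower, RPL3 at 0.25 ± 0.09 and RPL38 at -0.08 ± 0.03, and the median was -0.01. The call of RPL38 turned to a positive 0.29 with the mean of its probe sets, since its other probe set differed by 0.66. RPL3 turned to -0.07 with the principal component as a covariate. Among 24 translation factors 6 were higher and 2 lower (25.0% and 8.33%, beside 21.7% and 17.8% of all genes). EIF4E, which binds the cap of messenger RNA, had 8.75, 9.77 and 10.61 in heat-shock-high and 8.31, 8.70 and 9.13 in heat-shock-low muscles, with 19 of 20 heat-shock-high muscles above all heat-shock-low ones and a difference of 0.99 ± 0.11 (limma adjusted p = 2.73e-08). EIF2S1, the subunit phosphorylated in stress, differed by 0.30 ± 0.05, and EEF1A1, an elongation factor, was lower, at -0.28 ± 0.04.

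Glycogen genes, which store and release the sugar that muscle burns after death, held a lower and a higher gene of large size. Of 12 genes 1 was higher and 6 were lower (50.0%, beside 17.8% of all genes), with a median of -0.11 log2. PPP1R3B, which targets the phosphatase that turns glycogen synthase on, had 5.67, 7.15 and 8.82 in heat-shock-high and 7.78, 8.52 and 9.29 in heat-shock-low muscles. All but 2 of the heat-shock-high muscles lay below every heat-shock-low one, and the difference was -1.43 ± 0.20 (limma adjusted p = 8.43e-07). STBD1, which ties glycogen to membranes, differed by -0.38 ± 0.10, PHKB, a subunit of phosphorylase kinase, by -0.20 ± 0.05 and PGM1, phosphoglucomutase, by -0.12 ± 0.03. STBD1 turned to 0.03 with the principal component as a covariate. The higher gene was PRKAG2, a regulatory subunit of the AMP-activated kinase whose human mutations load the heart with glycogen. It had 8.14, 9.23 and 10.00 in heat-shock-high and 7.40, 8.01 and 8.93 in heat-shock-low muscles, a difference of 1.17 ± 0.16 (limma adjusted p = 1.13e-06). Every heat-shock-high muscle lay above the median of the heat-shock-low ones.

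Few genes of the respiratory chain were called, and those called in the TCA cycle and fatty acid oxidation were lower apart from 1 gene each. Of 12 glycolysis genes 1 was higher (8.33%, beside 21.7% of all genes) and 2 were lower (16.7%, close to the 17.8% of all genes). They were the hexokinase gene HK1 at 0.41 ± 0.14, the phosphofructokinase gene PFKM at -0.16 ± 0.04 and PGK1, phosphoglycerate kinase, at -0.12 ± 0.03. HK1 turned to -0.37 and PFKM to 0.00076 with the principal component as a covariate. Of 41 respiratory chain and ATP synthase genes 3 were higher and 1 was lower (7.32% and 2.44%), with a median of 0.00. Of 18 genes of the TCA cycle 1 was higher and 6 were lower (33.3%, beside 17.8% of all genes), among them SUCLG2 at -0.28 ± 0.07 and IDH3G at -0.22 ± 0.05, and the higher one was PDK4, which shuts pyruvate out of the cycle, at 0.26 ± 0.08. PDK4 turned to -0.07 with that covariate. Fatty acid oxidation had 1 of 23 genes higher and 6 lower (26.1%), such as the enzyme genes ECI1 at -0.26 ± 0.08, ACAA2 at -0.25 ± 0.07 and ACADL at -0.25 ± 0.08. PPARGC1A, or PGC-1 alpha, the coactivator of mitochondrial genes, was the higher one. It had 7.79, 9.46 and 10.27 in heat-shock-high and 7.57, 8.33 and 10.34 in heat-shock-low muscles, with the ranges fully overlapping and a difference of 0.88 ± 0.22 (limma adjusted p = 0.00159).

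Calcium handling was lower in 4 of 6 genes tested (66.7%, beside 17.8% of all genes) and higher in none, with a median of -0.24 log2. The list held 16 genes, of which 6 were on the array. RYR1, the release channel whose mutation causes stress-prone pigs, had 11.63, 12.21 and 12.58 in heat-shock-high and 12.07, 12.46 and 12.88 in heat-shock-low muscles, a difference of -0.27 ± 0.07 (limma adjusted p = 0.00361). Its groups overlapped, with 17 of 20 heat-shock-high muscles below the median of the heat-shock-low ones. CALM2, or calmodulin, differed by -0.37 ± 0.09, S100A1, a calcium sensor that acts on RYR1, by -0.45 ± 0.17 and HRC, a calcium-binding protein of the reticulum, by -0.21 ± 0.07. HRC turned to 0.02 with the principal component as a covariate. Of 11 slow fibre genes none was higher and 1 was lower, with 2 positive differences and a median of -0.03. Of 9 fast fibre genes none was higher and 2 were lower, with 1 positive difference and a median of -0.01. The called pumps of both types, ATP2A2 of slow fibres at -0.17 ± 0.06 and ATP2A1 of fast fibres at -0.27 ± 0.07, had other probe sets with differences of 0.15 to 0.38 and of 0.05, and their calls ended with the mean of all probe sets.

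Lipid genes were mixed. Of 13 lipogenesis and triglyceride genes 3 were higher and 3 lower (23.1% each way, beside 21.7% and 17.8% of all genes). PLIN2, which coats lipid droplets, had 6.99, 7.60 and 10.65 in heat-shock-high and 6.51, 7.05 and 7.85 in heat-shock-low muscles, a difference of 1.00 ± 0.26 (limma adjusted p = 0.00215). The groups overlapped, with 8 of 20 heat-shock-high muscles above every heat-shock-low one. The difference of PLIN2 turned to -0.65 with the principal component as a covariate. ELOVL6, a fatty acid elongase, was lower, at -0.62 ± 0.14 and the lipase gene PNPLA2 at -0.32 ± 0.08. Of 10 cholesterol synthesis genes 1 was higher and 2 were lower (10.0% and 20.0%). FDFT1, or squalene synthase, had 9.69, 10.20 and 11.25 in heat-shock-high and 10.64, 11.02 and 11.51 in heat-shock-low muscles, with 18 of 20 heat-shock-high muscles below all heat-shock-low ones and a difference of -0.80 ± 0.10 (limma adjusted p = 3.1e-07). Of 5 clock genes 2 were lower (40.0%, beside 17.8% of all genes) and none higher. The lower ones were the output factor DBP at -0.47 ± 0.07 and BHLHE40, a repressor of the clock, at -0.36 ± 0.08. The hour of slaughter of each pig was not analysed here. With the 4 cell type and fibre scores as covariates ELOVL6 (-0.33, limma adjusted p = 0.159) and PNPLA2 (-0.17, limma adjusted p = 0.243) no longer passed.

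Oxygen and redox genes had no common direction either. Of 10 hypoxia and metallothionein genes 4 were higher and 1 was lower (40.0% and 10.0%, beside 21.7% and 17.8% of all genes). Among them were ANKRD37, a target of hypoxia-inducible factor, at 0.88 ± 0.17, the vasodilator gene ADM at 0.54 ± 0.13 and the carbonic anhydrase gene CA9 at -0.25 ± 0.06. Of 19 oxidative stress genes 4 were higher and 3 lower (21.1% and 15.8%), close to the shares of all genes. GCLM, which sets the rate of glutathione synthesis, was higher by 0.66 ± 0.15 (limma adjusted p = 0.00058), and CAT, or catalase, was lower, at -0.39 ± 0.08 (limma adjusted p = 0.000155).

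**Figure D3:**
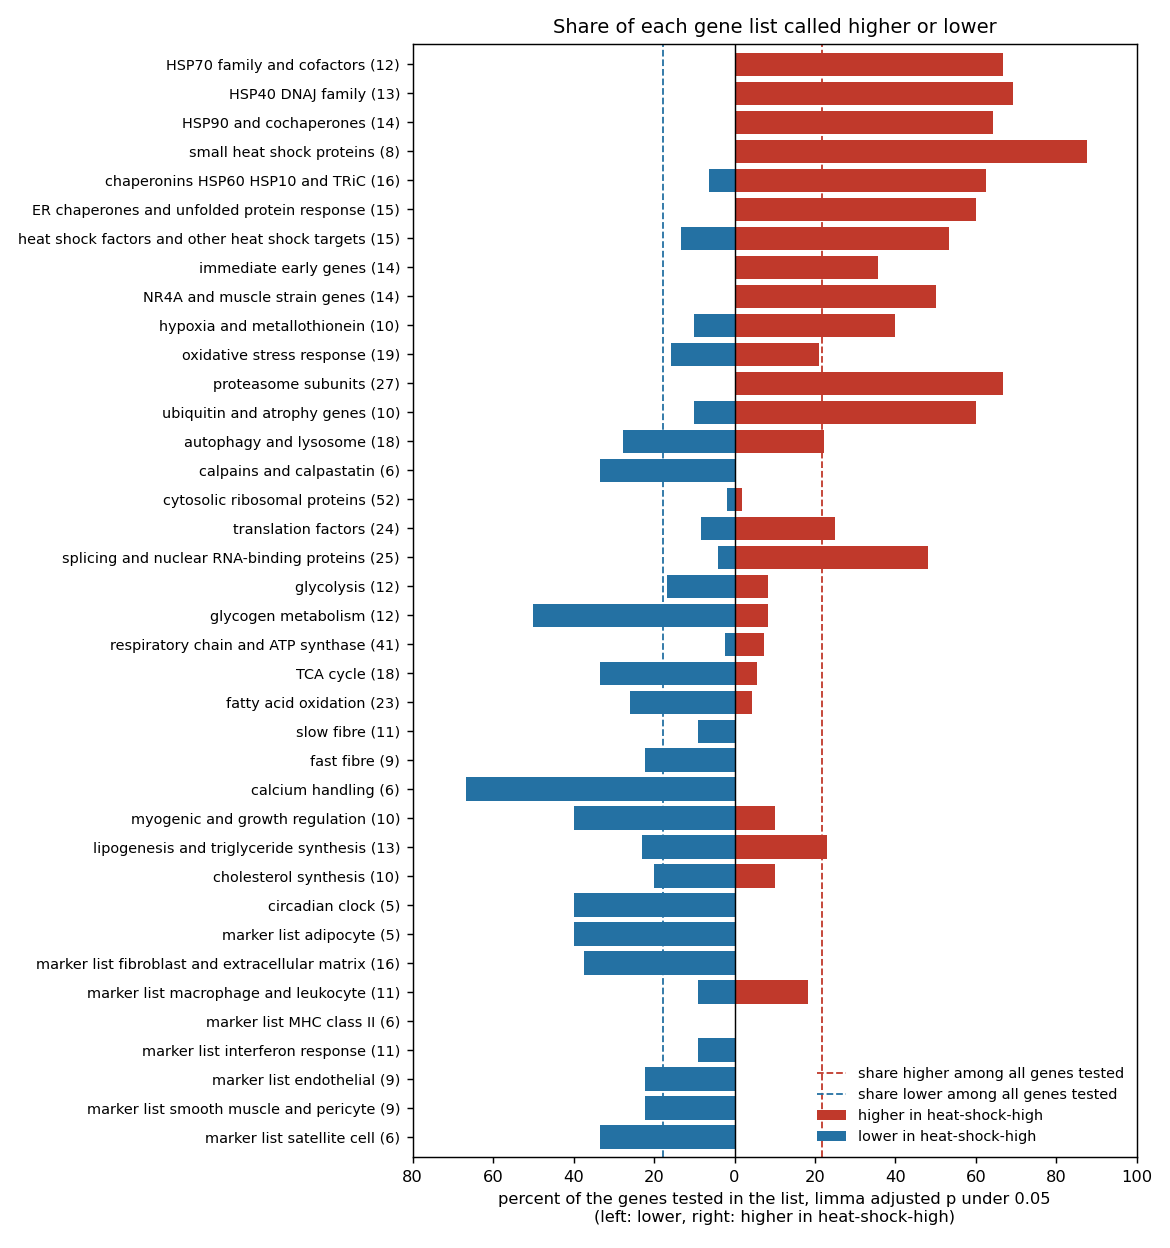
Percent of the tested genes of each list with at least 5 tested genes that were called higher (right bars) or lower (left bars) in heat-shock-high muscles by limma at an adjusted p under 0.05, with the number tested in brackets. The dashed lines mark the shares among all genes tested, 21.7% higher and 17.8% lower; of 38 lists 16 reach past the first line, the small heat shock proteins furthest at 87.5%, and 16 past the second, calcium handling furthest at 66.7%.

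The genes with the largest negative differences belong to no common list. FBXL4, an F-box protein of mitochondrial maintenance, had 5.56, 6.79 and 8.82 in heat-shock-high and 7.05, 8.49 and 9.17 in heat-shock-low muscles, the largest negative difference at -1.46 ± 0.20 (limma adjusted p = 9.43e-07). Its groups overlapped, with 12 of 20 heat-shock-high muscles below all heat-shock-low ones and 5 of 20 heat-shock-low muscles above all heat-shock-high ones. FAM69A, a kinase-like protein of the endoplasmic reticulum, had 7.26, 8.11 and 8.99 in heat-shock-high and 8.78, 9.08 and 9.46 in heat-shock-low muscles, with 18 of 20 heat-shock-high muscles below all heat-shock-low ones and a difference of -1.03 ± 0.12 (limma adjusted p = 3.49e-08). A second FAM69A probe set differed by just -0.16. MYLIP, the ligase that degrades the LDL receptor, had 7.80, 8.48 and 9.47 in heat-shock-high and 8.90, 9.51 and 9.94 in heat-shock-low muscles, a difference of -0.93 ± 0.12. RIPOR2, known from myoblast fusion, differed by -1.24 ± 0.25, and AKAP7, an anchor of protein kinase A, by -0.99 ± 0.18. RHOBTB1 differed by -0.82 ± 0.13 and MAP2K6, the kinase upstream of p38, by -0.78 ± 0.13. ARPP21, MSS51, PGM3, ANKRD44 and PTER completed the 15, with differences from -0.90 to -0.77 log2. The 2 other ARPP21 probe sets differed by -0.45 and -0.16. MAP2K6 turned to 0.04, MSS51 to 0.65 and ANKRD44 to 0.05 with the principal component as a covariate.

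Few markers of other cell types were higher in heat-shock-high muscles. Over 10 marker lists with 77 tested genes, 2 were higher (2.60%) and 17 lower (22.1%) in heat-shock-high muscles, beside 21.7% higher and 17.8% lower among all genes tested, with a median of -0.13 log2. Of 16 fibroblast and matrix genes 6 were lower and none higher, and the mean level of the list ran from 9.25 to 10.09 log2 per heat-shock-high muscle and from 9.36 to 10.12 per heat-shock-low muscle. The matrix proteoglycan gene DCN differed by -0.28 ± 0.07, the basement membrane collagen gene COL15A1 by -0.39 ± 0.09 and the gelatinase gene MMP2 by -0.28 ± 0.09. COL15A1 turned to 0.09 with the principal component as a covariate. Of 5 adipocyte genes 2 were lower, CIDEA, a lipid droplet protein, at -0.49 ± 0.14 and CFD, or adipsin, at -0.33 ± 0.05, and the list ran from 8.29 to 8.97 in heat-shock-high and from 8.59 to 9.22 in heat-shock-low muscles. FABP4, the main fatty acid carrier of fat cells, differed by -0.28 ± 0.14 and did not pass (limma adjusted p = 0.1). Satellite cell genes ran from 6.99 to 7.64 in heat-shock-high and from 7.18 to 7.64 in heat-shock-low muscles, with 2 of 6 lower, the chemokine receptor gene CXCR4 at -0.40 ± 0.08 and CD34, shared with vessels, at -0.17 ± 0.04.

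Blood, immune and vessel markers overlapped between the groups. Of 11 macrophage and leukocyte genes 2 were higher and 1 was lower (18.2% and 9.09%, beside 21.7% and 17.8% of all genes). The lysosomal protease gene LGMN differed by 0.44 ± 0.12, and the list level was 6.79 to 8.21 in heat-shock-high and 6.84 to 7.88 in heat-shock-low muscles. LGMN turned to -0.11 with the principal component as a covariate. None of 6 MHC class II genes was called by limma and none had an unadjusted p under 0.05, at 7.90 to 9.00 in heat-shock-high and 7.96 to 9.18 in heat-shock-low muscles. The same held for both red blood cell genes, at 8.42 to 9.15 in heat-shock-high and 8.52 to 9.08 in heat-shock-low muscles. Of 11 interferon genes 1 was lower, IFI44L at -0.55 ± 0.15, with the list at 6.46 to 8.19 in heat-shock-high and 6.69 to 8.56 in heat-shock-low muscles. Endothelial genes (2 of 9 lower, 22.2%, beside 17.8% of all genes) ran from 7.46 to 7.85 in heat-shock-high and from 7.54 to 8.12 in heat-shock-low muscles. Smooth muscle and pericyte genes (2 of 9 lower) ran from 9.58 to 10.23 in heat-shock-high and from 9.74 to 10.58 in heat-shock-low muscles, and nerve and Schwann cell genes (1 of 2 lower) from 6.54 to 7.95 in heat-shock-high and from 6.86 to 7.77 in heat-shock-low muscles. No marker is at 0 on this log scale, and the part of other cells in the differences above was not tested beyond the fit with cell type scores. That fit cannot decide it for genes that are themselves part of those scores.

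**Figure D4:**
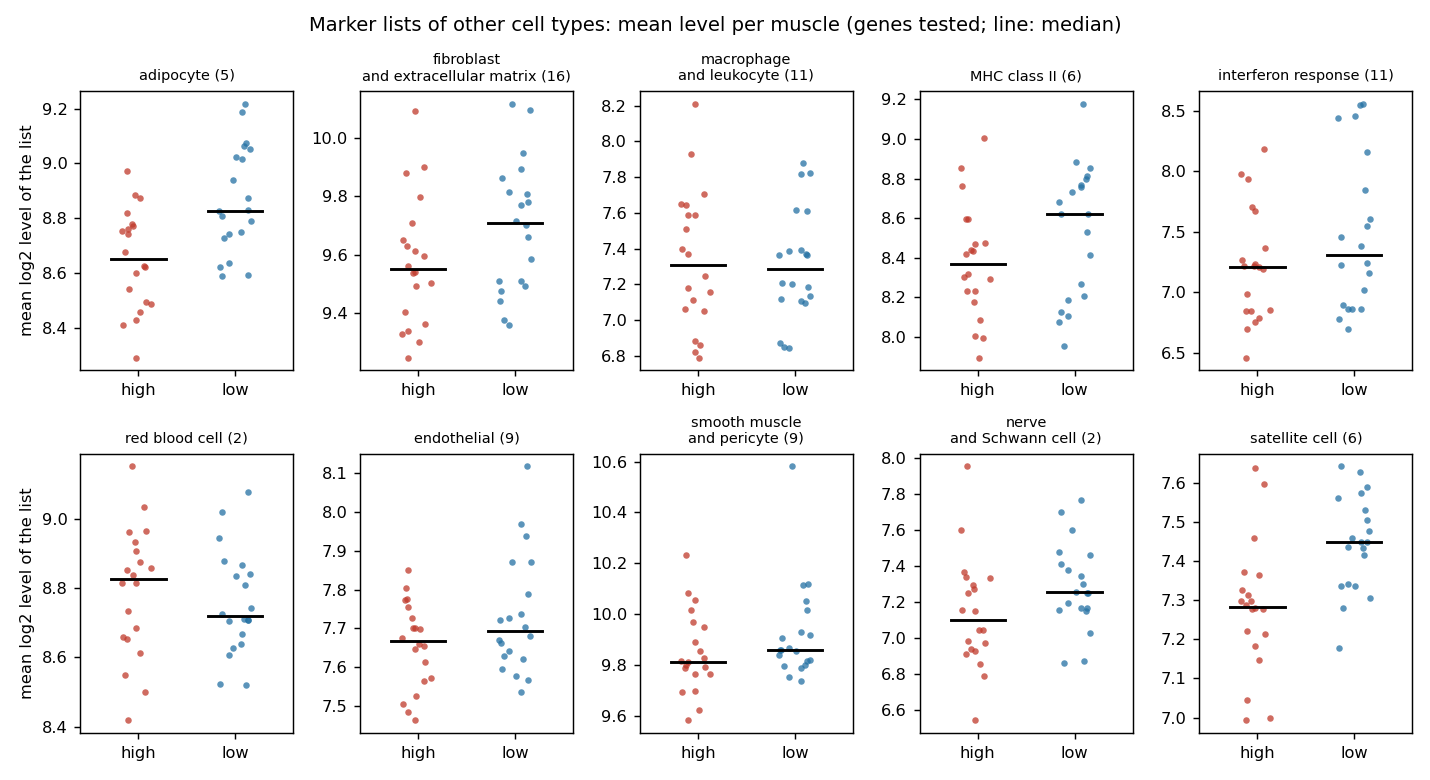
Mean log2 level of the tested genes of 10 marker lists in each of the 20 heat-shock-high (left in each panel) and 20 heat-shock-low muscles, with the median as a line and the number of genes in brackets. All lists overlap between the groups. Averaged over the muscles of a group, the adipocyte list lies at 8.65 in heat-shock-high and 8.87 in heat-shock-low muscles. The interferon list lies at 7.22 and 7.48 and the satellite cell list at 7.28 and 7.45. These averages are lower in heat-shock-high muscles for every list except macrophage and leukocyte (7.34 and 7.31) and red blood cell (8.79 and 8.76).

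Many of these genes varied more among the heat-shock-high muscles. Of the 134 genes higher by at least 0.5 log2, 114 had a larger SD among heat-shock-high than among heat-shock-low muscles, and of the 68 lower genes 56 did, beside 3212 of all 4923 genes. Pig 36, with the highest score, held the highest level of all 59 arrays for 61 of the 134 genes, pig 37 for 18, pig 5 for 11 and pig 52 for 10. These genes were chosen for being higher in the group that holds these pigs. Pig 58, next in score, held it for 0 of them. On leaving out any pig in turn, the 15 largest positive differences kept a limma adjusted p of at most 0.0116 and the 15 largest negative ones of at most 0.00431.

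The 19 middle muscles, which the groups did not use, were examined with the same score. In them each gene's slope on the score was fitted and scaled to the gap of 1.92 between the mean scores of the groups. The score of these muscles spans just -0.41 to 0.40, so the slopes are imprecise: at an adjusted p under 0.05 limma called 0 of 4923 genes (0%), and 284 had an unadjusted p under 0.05. By direction, 1412 of the 1943 called genes (72.7%) had a slope of the same sign as their group difference, beside 1651 of 2980 uncalled genes (55.4%). Genes are not independent replicates, and these shares carry no test. The score of the middle muscles was also read from the same arrays as the slopes. Any state of the muscle or sample that moves with the score could give the same signs, so the shares are not an independent replication. Of the 202 genes with a difference of at least 0.5, 167 agreed in sign (82.7%). All 15 of the largest positive differences did, and 13 of the 15 largest negative ones, the exceptions being RIPOR2 and MAP2K6.

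Among the called chaperones 47 of 52 had a positive slope in the middle muscles. Among the named genes, chosen here after the slopes were seen, JMJD6 had a slope of 0.82 ± 0.20 (SE), HSP90B1 of 1.51 ± 0.48 and FKBP4, an HSP90 cochaperone, of 1.17 ± 0.32. HSPA6 had 0.50 ± 1.04 and HSPB3 had a negative slope of -0.71 ± 0.39. None of these passed after adjustment. The proteasome did not keep its direction, with 7 of 27 positive slopes and a median of -0.10, beside 25 of 27 positive group differences. Other lists did not either. Slopes and group differences were positive in 5 and 1 of 5 adipocyte genes and in 8 and 2 of 9 endothelial genes. The same counts were 7 and 3 of 9 smooth muscle and pericyte genes and 9 and 2 of 11 slow fibre genes. Over the 77 marker genes 33 slopes were positive, beside 17 group differences. Fibroblast and matrix genes kept their direction, with 2 of 16 slopes and 2 of 16 group differences positive. In calcium handling 5 of 6 slopes were negative.

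**Figure D5:**
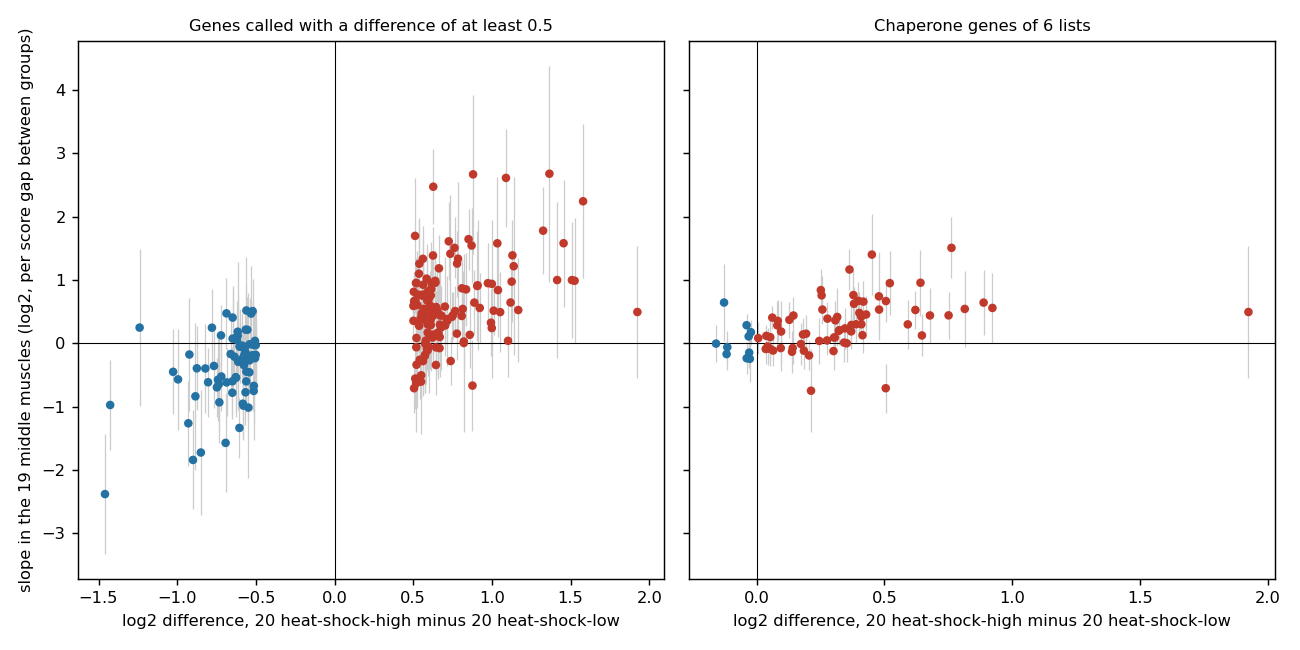
Slope of each gene on the score in the 19 middle muscles (log2, scaled to the score gap between the groups, with its SE) against its log2 difference between heat-shock-high and heat-shock-low muscles, for the 202 genes called with a difference of at least 0.5 (left) and the 78 chaperone genes (right). Signs agree for 167 of the 202, and the intervals of most slopes include 0.

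Of 10 array quality measures 0 passed between the groups and 3 passed against the score over all 59 arrays. By a two-sided permutation test of 100000 resamples between the groups, 3 had an unadjusted p under 0.05, and 0 passed after Benjamini-Hochberg adjustment. The median of an array was 6.257 ± 0.018 log2 in heat-shock-high and 6.274 ± 0.017 in heat-shock-low muscles (SD, n = 20 each, permutation p = 0.00654, adjusted p = 0.0654), and with 15 against 15 arrays it passed (permutation adjusted p = 0.0498). Over all 59 arrays it correlated with the score at r = -0.429 (Spearman -0.379, permutation p = 0.00074 and 0.00368, adjusted p = 0.0037 and 0.022), and r was -0.352 without the 2 arrays farthest from the median. The interquartile range of an array correlated with the score at r = 0.348 (Spearman 0.302, permutation p = 0.00628 and 0.0197, adjusted p = 0.0209 and 0.0657), and at 0.269 without the 2 farthest arrays. The 3′ minus 5′ difference of a GAPDH control, a sign of RNA length, was 0.276 ± 0.036 in heat-shock-high and 0.304 ± 0.039 in heat-shock-low muscles (permutation p = 0.0188, adjusted p = 0.0938). Over all 59 arrays the score correlated with this difference at r = -0.428 (Spearman -0.367, permutation p = 0.00058 and 0.0044, adjusted p = 0.0037 and 0.022), and r was -0.349 without the 2 arrays farthest from the median. A covariate was formed from the 3′ minus 5′ differences of another actin and GAPDH control pair, and with it 1096 genes were higher and 888 lower. That pair did not pass between the groups (permutation p = 0.181 for actin and 0.717 for GAPDH). The GAPDH difference that correlated with the score was not used as a covariate.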

How the data were processed

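Total RNA from 59 muscles was labelled with biotin and hybridised to Affymetrix porcine arrays, 1 per pig, per the labels' protocols. The authors made the deposited log2 values, 1 per probe set and array, with GCRMA, per the submitters' processing notes. Its version and the log base are not given in the sources used here, and values from 2.39 to 15.04 were read as log2. Compression of differences at the dim or bright end of the scale was not tested. Arrays count no molecules, so the precision rests on how many were run.

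Of 24123 probe sets 124 were controls. A platform annotation gave 1 gene symbol for 10099, several for 198 and none for 13826, and the last 2 kinds were tested without a name, so some may measure the 5 score genes. Tested were 11991 probe sets with a mean of at least 6.27 log2 that do not name a score gene. A gene stands by its tested probe set with the highest mean. Groups were compared with limma (lmFit and eBayes), adjusted by Benjamini-Hochberg over all probe sets tested, at 0.05. On simulated data with 20 arrays a group, the fit recovered 40 of 67 differences of 0.25 log2, 61 of 67 of 0.5 and all 66 of 1. The simulated probe sets varied independently and few were changed, unlike on these arrays, so these rates do not carry over to the comparison above.

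The members, the 40 gene lists and the tests were chosen with earlier results of these data known. The lists held 843 genes, 609 of them on the array and 556 tested. Named are the 15 largest called differences each way and, per list, up to 6 called genes with the largest differences and up to 3 bright genes that were not called; other names are marked in the text. The p-values set a difference against the spread between these pigs and treat the pigs as independent. The labels do not say which pigs share a litter or batch, so that could not be checked. The tools were limma 3.58.1 in R 4.3.3, and scipy 1.17.1, matplotlib 3.10.9, pandas 2.3.3 and numpy 2.4.6 in Python 3.11.15. Alternatives varied the filter, scaling, probe set, score genes, group size, spread model, covariates and pigs left out. A search of promoters for heat shock elements was not done, since no promoter sequence was used here.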

Additional observations from a re-analysis of the deposited data

How the results depend on the processing

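The counts of 1067 genes higher and 876 lower moved by less than 1.5 times with no filter, re-centred arrays, quantile normalisation, centring on the brightest probe sets, the mean of probe sets, another score without HSP70.2 or without the DNAJ genes, 15 against 15 arrays, a slope over all 59 arrays, a trended and robust spread, the 3′ to 5′ covariate and the 4 extreme arrays left out. Leaving out 1 pig at a time gave 999 to 1106 genes higher and 802 to 924 lower, 120 to 151 and 61 to 77 by at least 0.5 log2, and 4184 to 4706 probe sets called, beside 4516 with all pigs. With 29 against 29 arrays, 72 genes were higher and 32 lower by at least 0.5. With the 6000 brightest probe sets, which test fewer genes, 2587 probe sets were called, 540 genes were lower, and 42 were lower by at least 0.5. With the cell type and fibre scores as covariates, 2284 probe sets were called, 547 genes higher, 478 lower, and 85 higher by at least 0.5; the cause was not tested. With the first principal component as a covariate, 34 probe sets were called, with 7 genes higher, 7 lower, and 3 higher and 1 lower by at least 0.5. That component correlates with the score, and the cause was not tested.

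Of 147 named genes, 27 changed sign with the component as a covariate, some of them to values close to 0. The change of sign itself was not tested. Differences that were positive between the groups became negative for CBLB (-0.14), DUSP1 (-0.20), FOS (-0.029), GADD45A (-0.13), HK1 (-0.37), HMOX1 (-0.16), HSPA5 (-0.071), LGMN (-0.11), MANF (-0.070), MYC (-0.13), PDK4 (-0.074), PLIN2 (-0.65), PSMD12 (-0.00011), RPL3 (-0.068), SLC5A6 (-0.39), TBC1D20 (-0.46) and ZFAND2A (-0.15). Negative ones became positive for ANKRD44 (0.053), CAP2 (0.33), COL15A1 (0.088), HRC (0.019), HSPB6 (0.092), MAP2K6 (0.039), MSS51 (0.65), PFDN1 (0.094), PFKM (0.00076) and STBD1 (0.028). FABP4 turned to 0.13 with the cell type scores, but it is part of the adipocyte score and was so adjusted for itself. RPL38 (0.29) and ATP2A2 (0.12) turned with the mean of all probe sets. Apart from the covariates, a call was lost under at least 1 other setting for ATP2A1, ATP2A2, ECI1, HK1, HMOX1, HRC, PFDN1, RBM3, RPL38, S100A1, SLC5A6 and TBC1D20. None of the named genes changed sign under the 3 other scalings. The array quality measures that passed were 1 of 10 with 15 against 15 arrays and 3 of 10 by Pearson r over all 59 arrays. The count of 0 genes called in the middle muscles stayed at 0 under its 4 alternatives. No paired analysis was possible because the labels put all pigs in 1 group and a pig number only names a pig.

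Signal over background limits dim genes, since probe sets under 6.27 log2 were not tested. Groups formed from expression on the same arrays cannot be told apart from any other state of the muscle or sample that moves with the 5 genes, and 59 pigs of 1 cross at 1 age limit how far the values reach.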

Other observations

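With the first principal component as a covariate, limma called 14 genes. Without it 7 of them were called in the same direction, 3 in the opposite direction and 4 not at all. The genes named here, apart from NDUFS6, fall outside the naming rule and were chosen after their values were seen. The mitochondrial carrier gene SLC25A21 differed by 0.85 between heat-shock-high and heat-shock-low muscles and by 0.66 with the component (limma adjusted p = 3.71e-08 and 0.0312). LRRC42 differed by 0.59 and by 0.46 with the component, and NDUFS6, a subunit of complex I of the respiratory chain, by 0.26 and 0.46. NANOS1, known as an RNA-binding protein of germ cells, differed by 0.67 and 1.12, and C5H12orf45 by 0.61 and 1.03. ECHDC1, an enzyme that repairs faulty fatty acid intermediates, had -0.43 and -0.30, and GJA4, a connexin of vessels, -0.18 and -0.32. In the opposite direction, TBC1D20 differed by 0.31 and by -0.46 with the component, SLC5A6 by 0.27 and -0.39, and CAP2, an actin regulator of striated muscle, by -0.30 and 0.33. The calls of TBC1D20 and SLC5A6 without the component were lost on leaving out any of 9 and any of 5 pigs in turn.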
